A study of Mus musculus with 6 samples.

Results

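The phosphodiesterases, adenylyl cyclases, protein kinase A subunits and CREB factors that make, destroy and read cyclic AMP were followed in tumour epithelial cells of mouse skin papillomas, with and without Sox2. Members were taken by gene symbol: Pde with a number and a letter, Adcy with a number, both catalytic genes (Prkaca, Prkacb) and all 4 regulatory genes (Prkar1a, Prkar1b, Prkar2a, Prkar2b) of protein kinase A, and the factor genes Creb1 and Crem. RefSeq lists 42 such genes, and 41 of them had a probe set that names 1 gene, out of 18193 genes so covered. These were 23 genes with a phosphodiesterase symbol, 10 adenylyl cyclase genes, 6 kinase subunit genes and 2 factor genes, read by 110 probe sets. Not all of the 23 break down cyclic AMP, as described below for Pde5a and Pde6d. Pde4c was not analysed here. The family was chosen on the difference of Pde3b in this same contrast, so the values of Pde3b are a description and no test of them is given as support.

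The 6 Affymetrix Mouse Genome 430 2.0 arrays, 3 per group, read epithelial cells from benign papillomas raised by chemicals. CTRL were control mice given tamoxifen for 1 week, and whether they carry the recombinase or the floxed allele was not given in the sources used here. Sox2cKO were K14CREER:SOX2fl/fl mice given tamoxifen for the same time, in which a tamoxifen-activated Cre under the keratin 14 promoter, active in basal keratinocytes, cuts out Sox2. Living Epcam+ and alpha6+ cells free of CD45, CD31 and CD140a were sorted. Sox2 read 7.19, 8.31 and 8.18 on the log2 scale in CTRL replicates 1 to 3 and 4.07, 4.63 and 3.23 in Sox2cKO. The basal markers Epcam (10.57 to 11.43) and Itga6 (12.07 to 12.45) were high on all arrays. Of the genes for excluded markers, Ptprc (CD45) read 4.58 to 5.51, Pecam1 (CD31) failed the filter described below, and Pdgfra (CD140a) read 5.05 to 5.52 in CTRL and 5.49, 6.21 and 7.25 in Sox2cKO. The 3 unspiked bacterial probe sets put background at 3.34 to 3.41. By Xist and the Y-linked genes Eif2s3y, Kdm5d and Uty, CTRL replicates 2 and 3 had a female pattern and the other 4 arrays a male pattern, so CTRL replicate 1 is the only control that shares the pattern of the Sox2cKO arrays.

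Cyclic AMP is made from ATP at the membrane by adenylyl cyclases, which stimulatory G proteins switch on, and is destroyed by phosphodiesterases. It binds the regulatory subunits of protein kinase A and so frees the catalytic subunits, which phosphorylate many proteins, among them the transcription factor CREB. In epidermis a raised cyclic AMP level is known to affect keratinocyte growth and differentiation.

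A gene was tested where its probe set exceeded the array's 40th percentile (4.90 to 4.94) on at least 3 arrays, and the probe set with the highest mean stood for the gene. This left 30 of the 41 members, 27 of them above that level on all 6 arrays. Differences are Sox2cKO minus CTRL on the log2 scale, from a limma fit of all 13222 genes tested. In that fit 0 of the 30 members had a Benjamini-Hochberg adjusted p under 0.05, where 0% of all genes did (every member at an adjusted p of 0.999). The counts that follow leave out Pde3b, which was in each of them by the choice of the family. Of the other 29 members, 1 had an unadjusted p under 0.05 (Prkar2b), against 2.68% of all genes. The same gene was the 1 of 29 with groups apart, that is, all arrays of a group above all of the other, against 5.85% of all genes. It was lower in Sox2cKO, as were 3.12% of all genes, and 0 members were apart and higher, against 2.73%. A difference of at least 1.5-fold was read for 2 of the 29, Prkar2b and Crem, against 2.69% of all genes. The median difference was -0.04, against 0.00 for all genes, and 18 members were below 0 (62.1%, against 49.4% of all genes). For 25 of the 29 the 95% interval of the difference lay within 1 log2 unit of 0, as for 91.6% of all genes. In such sorted pools, fewer cells with a transcript and less of it per cell cannot be told apart.

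**Figure D1:**
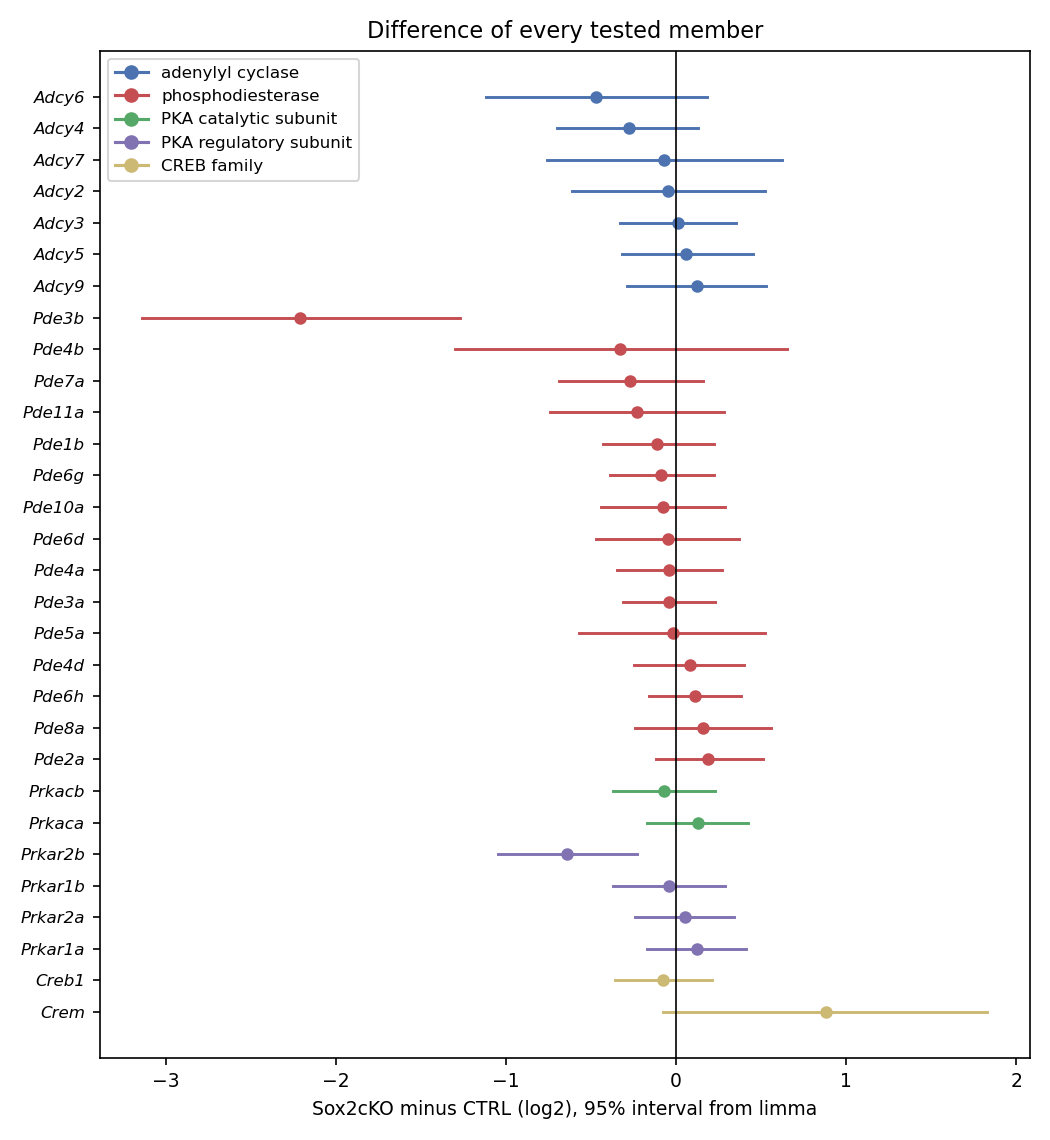
Difference between Sox2cKO and CTRL (x axis, log2) for each of the 30 tested members (y axis), coloured by role, where points are differences and lines their 95% intervals from limma (n = 3 arrays per group). Pde3b lies apart at -2.21, Prkar2b is the other interval clear of 0, and Crem is the highest at 0.88.

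**Figure D2:**
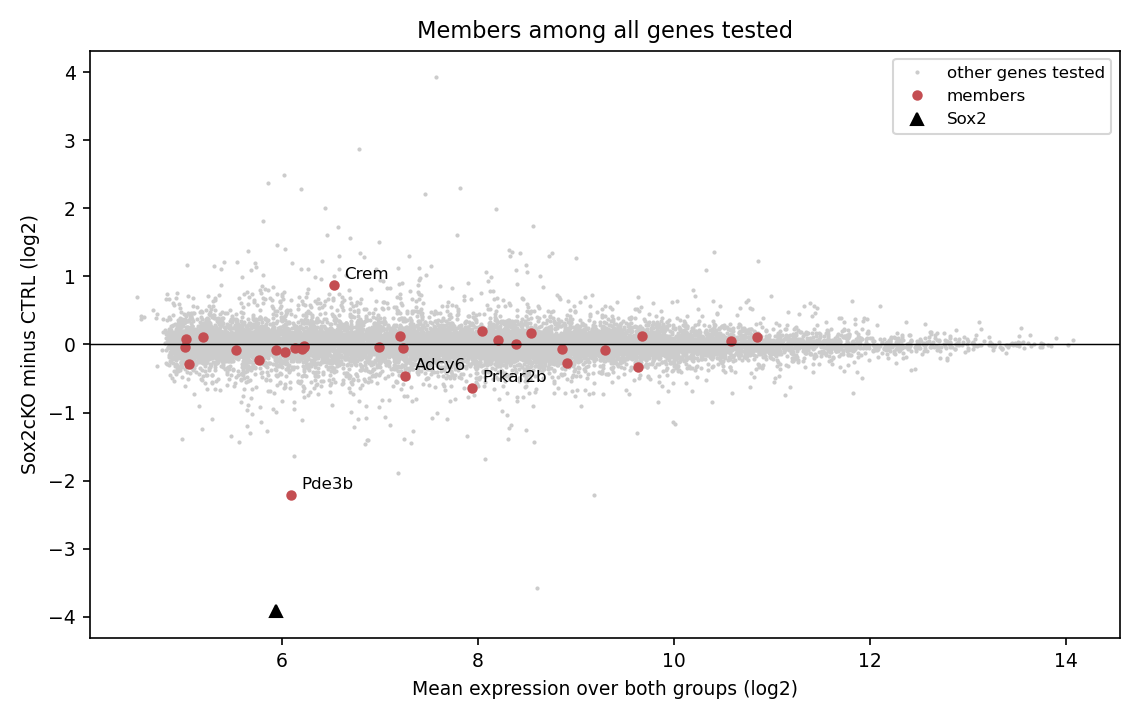
Difference between Sox2cKO and CTRL (y axis, log2) against the mean of both groups (x axis, log2) for all 13222 genes tested (grey), the 30 members (red) and Sox2 (black triangle). Most members lie in the grey band around 0, and Pde3b lies far below it.

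The counts moved with the fit and with single arrays, as did those of all genes. With same-numbered arrays as blocks, 4 of the 29 had an unadjusted p under 0.05 (Crem, Prkar2b, Adcy6 and Pde7a), against 4.96% of all genes, and the lowest adjusted p among them was 0.884. With the sex pattern as a covariate, which sets the Sox2cKO arrays against CTRL replicate 1 alone, 0 of the 29 did in limma, against 0.711%. Without CTRL replicate 1, 8 of the 29 had groups apart, against 18% of all genes, and without CTRL replicate 2 it was 1, against 10.8%. Without CTRL replicate 3 or Sox2cKO replicate 1 there were 3, against 13.2% and 13.6%. Without Sox2cKO replicate 2 or 3 there were 7, against 20.1% and 16.9%, and in the former case the median of all 30 was 0.02.

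Among the adenylyl cyclases, which make cyclic AMP, 7 of 10 genes were tested and none passed, with differences between -0.47 and 0.12 and a median of -0.05. Adcy6, a calcium-inhibited cyclase found in many tissues, read 7.26, 8.05 and 7.15 in CTRL and 6.64, 7.30 and 7.12 in Sox2cKO. The groups overlapped, since Sox2cKO replicate 2 lay above CTRL replicates 1 and 3, and CTRL replicate 2 was the highest of all. The difference was -0.47 (standard error 0.28, 95% interval -1.12 to 0.18). Between same-numbered arrays it was -0.62, -0.75 and -0.03, and the unadjusted p was 0.135 in limma and 0.0419 with the block (adjusted p 0.979). It was -0.18 without CTRL replicate 2, -0.28 without Sox2cKO replicate 1 and -0.24 with the sex covariate. Adcy4 read 5.00, 5.36 and 5.22 in CTRL and 4.97, 4.61 and 5.16 in Sox2cKO, close to the level of the filter and with overlapping groups. Adcy3, which also serves odour sensing, differed by 0.01 (95% interval -0.33 to 0.35), and its 4 probe sets lay between near 0 and 0.10. Adcy9, a cyclase little affected by forskolin, differed by 0.12, with 3 of its 4 probe sets above 0. Adcy2, Adcy5 and Adcy7 differed by -0.05, 0.06 and -0.07. Adcy1, Adcy8 and the soluble cyclase gene Adcy10 were not tested, and no array exceeded the 40th percentile in their highest probe sets (3.49 to 4.82).

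Pde3b encodes the phosphodiesterase through which insulin lowers cyclic AMP in fat and liver. Its only probe set (1433694_at) read 6.33, 7.78 and 7.47 in CTRL and 4.53, 4.97 and 5.47 in Sox2cKO. Every Sox2cKO array lay below every control array, and Sox2cKO replicate 1 was below its array's 40th percentile. The mean was 7.19 ± 0.76 in CTRL and 4.99 ± 0.47 in Sox2cKO (SD, n = 3 each), a difference of -2.21 with a standard error of 0.40, or 4.62-fold. Between same-numbered arrays the differences were -1.81, -2.81 and -2.01. Among the 412 genes with groups apart and lower, this was number 2 by size, a description only, since the family was chosen on this difference. Against CTRL replicate 1 alone, through the sex covariate, the difference was -1.34, and with 16 added on the linear scale, which dampens values near background, it was -1.77. Leaving out each array in turn gave -2.64 to -1.92.

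The sister gene Pde3a, known from heart and platelets, read 5.01, 5.05 and 5.03 in CTRL and 4.95, 4.91 and 5.12 in Sox2cKO. All 6 values were just above the filter, and the difference was -0.04 (95% interval -0.31 to 0.23). This interval does not reach the difference read for Pde3b, though a probe set this near the filter reads changes only in part.

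Markers of other cell types also differed between these arrays. Sebocyte markers had 5 of 6 tested genes below 0, with a list median of -0.51. The mean of their centred log2 values was 1.16 in CTRL replicate 2, where Pde3b was highest, -0.08 to 0.01 in the other controls and -0.87 to 0.24 in Sox2cKO. In CTRL replicates 1 and 3, Pde3b read 6.33 and 7.47 with sebocyte means of -0.08 and 0.01. In Sox2cKO replicates 1 to 3 it read 4.53, 4.97 and 5.47 with sebocyte means of -0.46, 0.24 and -0.87. Fibroblast and pericyte markers had 10 of 11 genes above 0, with a list median of 1.22. Their means were -1.03 to -0.23 in CTRL and 0.08 to 1.29 in Sox2cKO. Of these 11 genes, 2 (Postn and Pdgfrb) were apart and higher, against 2.73% of all genes. Of the adipocyte markers, Adipoq (3.50 to 3.96), Cidec and Lep failed the filter on every array, and Fabp4 and Retn were tested and overlapped between groups. The endothelial genes Pecam1, Cdh5, Tek and Emcn failed it too, while Kdr (5.78 to 6.17) was tested and overlapped between groups. Suprabasal keratinocyte markers were above 0 in 5 of 5 genes (median 0.33), with Lor, a cornified envelope gene, apart at 6.01 to 6.28 against 6.46 to 6.51. Their means were -0.47 to 0.30 in CTRL and -0.20 to 0.45 in Sox2cKO. Leukocyte markers were above 0 in 4 of 6, but Cd74, the invariant chain of MHC class II cells, differed by -1.09 with groups apart. Basal keratinocyte, melanocyte and muscle lists had medians of 0.02, 0.12 and 0.06. The part of these cell types in the Pde3b difference was not tested.

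**Figure D3:**
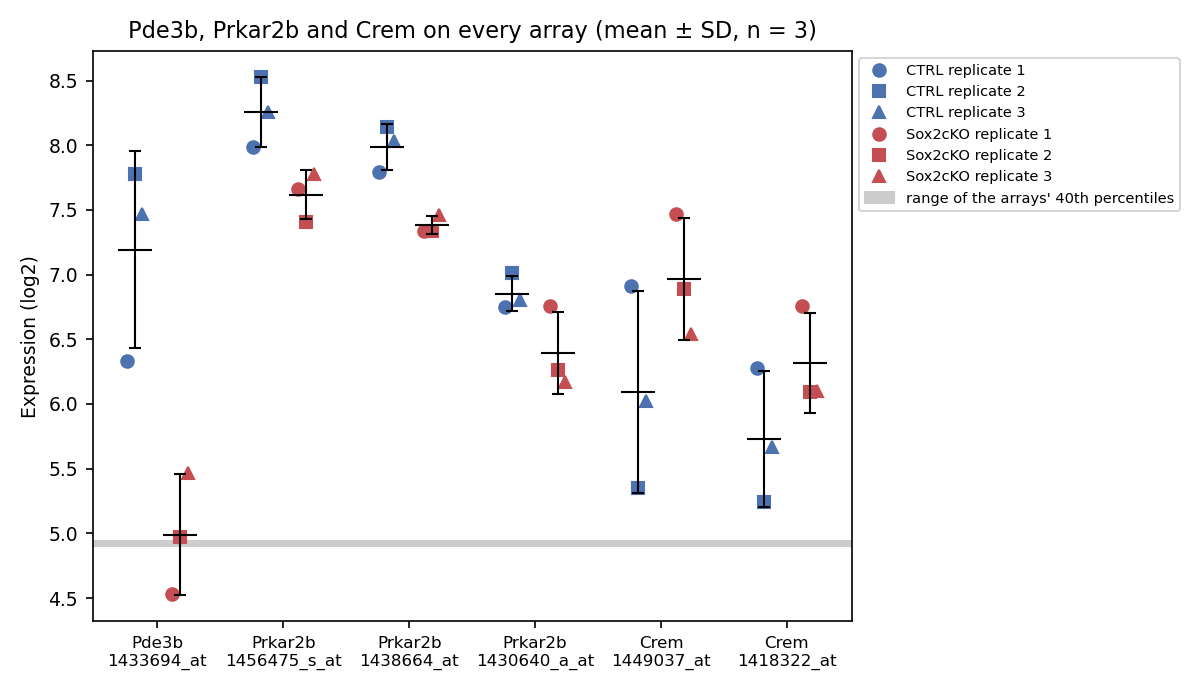
Log2 expression (y axis) on each array for all tested probe sets of Pde3b, Prkar2b and Crem (x axis), with CTRL in blue, Sox2cKO in red, marker shape giving the replicate number, and black bars the mean ± SD of 3 arrays. Grey marks the arrays' 40th percentiles. Pde3b and the first 2 probe sets of Prkar2b show no overlap between groups, and both probe sets of Crem overlap.

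The other phosphodiesterases differed by little, in a range of -0.33 to 0.19. With Pde3b, which is below 0 by the choice of the family, 11 of 15 tested genes were below 0 and 4 above. Of all genes tested, 49.4% were below 0. The median of the 15 was -0.05. Pde4b, a cyclic AMP-specific enzyme of inflammatory cells and epithelia, read 10.23, 9.35 and 9.81 in CTRL and 10.36, 9.33 and 8.72 in Sox2cKO. The highest and the lowest value were both Sox2cKO arrays. The difference was -0.33 (95% interval -1.30 to 0.65), and the 3 tested probe sets lay between -0.53 and -0.27. It was 0.05 without Sox2cKO replicate 3, -0.77 without Sox2cKO replicate 1, -0.11 without CTRL replicate 1 and -0.55 without CTRL replicate 2. Pde4a and Pde4d, of the same subfamily, differed by -0.04 and 0.08 with intervals that stayed within -0.35 and 0.40.

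Pde7a, another enzyme specific for cyclic AMP, was read by 7 tested probe sets, of which 6 were below 0 (-0.38 to 0.13). Its leading probe set read 8.88, 9.33 and 8.93 in CTRL and 8.57, 9.03 and 8.73 in Sox2cKO. Groups overlapped, but each Sox2cKO array lay below the control of its number. The difference was -0.27, with an unadjusted p of 0.180 in limma and 0.0486 with the block (adjusted p 0.979), and it was -0.13 without CTRL replicate 2, -0.16 without Sox2cKO replicate 1 and -0.10 with the sex covariate.

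Pde8a, a high-affinity cyclic AMP enzyme, differed by 0.16, with both probe sets above 0. Pde2a, which cyclic GMP stimulates, had probe sets that disagreed. Its leading probe set differed by 0.19. Another (1452202_at) read 4.99, 5.00 and 5.15 in CTRL and 4.65, 4.92 and 4.76 in Sox2cKO, with groups apart and a difference of -0.26. The mean of the 3 probe sets differed by -0.03. Pde1b (-0.11), Pde10a (-0.08) and Pde11a (-0.23), which act on both cyclic nucleotides, had overlapping groups. In Pde11a a single array, CTRL replicate 3 at 6.39, stood above the others at 5.62 to 5.70. The cyclic GMP enzyme Pde5a differed by -0.02, with a 95% interval of -0.57 to 0.52. Pde6d, whose product carries prenylated proteins, differed by -0.05, and the photoreceptor subunit genes Pde6g and Pde6h by -0.09 and 0.11. Pde1a, Pde1c, Pde6a, Pde6c, Pde7b and Pde8b exceeded the 40th percentile on 0 arrays, Pde9a on 1 and Pde6b on 2, so none of these was tested.

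Of the kinase subunits, Prkar2b stood out by size. It encodes the type II beta regulatory subunit, known from fat and brain, which holds the catalytic subunits inactive until cyclic AMP binds. The leading probe set (1456475_s_at) read 7.99, 8.53 and 8.26 in CTRL and 7.66, 7.41 and 7.78 in Sox2cKO. A second (1438664_at) read 7.79, 8.14 and 8.03 against 7.34, 7.34 and 7.46. In both, every Sox2cKO array lay below every control array. The third (1430640_a_at) read 6.75, 7.01 and 6.80 against 6.76, 6.26 and 6.17, with Sox2cKO replicate 1 inside the control range.

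The leading probe set of Prkar2b differed by -0.64 (standard error 0.18, 95% interval -1.05 to -0.23), or 1.56-fold, and the others by -0.61 and -0.46. The unadjusted p was 0.00776 and the adjusted p 0.999 in limma, so the difference did not pass over all genes. Between same-numbered arrays it was -0.33, -1.12 and -0.48. Leaving out each array in turn gave -0.77 to -0.51, with the mean of the probe sets it was -0.57, and against CTRL replicate 1 alone it was -0.37 (unadjusted p 0.152 with the sex covariate in limma). Probe sets with groups apart numbered 5 of 70 among the members, where 6.26% of all tested probe sets had them. The Pde3b probe set is 1 of these 5 by the choice of the family, so the count is a description only. The others were 2 of Prkar2b, 1 of Pde2a and 1 of Prkar1b, the last at 0.28.

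The other regulatory genes were near 0. Prkar1a, the type I alpha subunit whose loss causes Carney complex, read 10.90, 10.62 and 10.86 in CTRL and 10.86, 10.96 and 10.90 in Sox2cKO. These 6 values spanned a narrow band, and the difference was 0.12 (95% interval -0.17 to 0.41), with 3 of 3 probe sets above 0. Prkar2a, the type II alpha subunit, differed by 0.05 in its leading probe set, and all 4 of its probe sets were above 0 (0.04 to 0.53). Prkar1b differed by -0.04, with 2 of 4 probe sets above 0. The catalytic genes differed by 0.13 (Prkaca, 95% interval -0.17 to 0.42) and -0.07 (Prkacb, -0.37 to 0.23), and for each the second tested probe set had the opposite sign.

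Promoter sequence was available for 31 of the members, from RefSeq on GRCm38.p6, as 300 bases from 250 before to 50 after each listed start. Pde3b was not among these 31, so its promoter was not searched. Sequences are shown for the regulatory subunit gene with the difference, Prkar2b, at both of its starts, and for Prkar1a. Among the 31, Prkar1a alone held the full cyclic AMP response element TGACGTCA. Capitals mark TGACG, the core of that element, on either strand, with overlaps counted. Coordinates are chr12:32061228-32061527 (minus strand) and chr12:32060540-32060839 (minus strand) for Prkar2b and chr11:109650699-109650998 (plus strand) for Prkar1a.
Prkar2b first start: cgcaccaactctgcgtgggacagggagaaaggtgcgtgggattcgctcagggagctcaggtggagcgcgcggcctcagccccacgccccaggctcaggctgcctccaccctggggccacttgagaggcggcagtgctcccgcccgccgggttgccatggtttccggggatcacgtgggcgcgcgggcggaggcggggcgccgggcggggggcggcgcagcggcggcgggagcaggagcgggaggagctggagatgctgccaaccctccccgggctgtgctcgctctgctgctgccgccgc
Prkar2b second start: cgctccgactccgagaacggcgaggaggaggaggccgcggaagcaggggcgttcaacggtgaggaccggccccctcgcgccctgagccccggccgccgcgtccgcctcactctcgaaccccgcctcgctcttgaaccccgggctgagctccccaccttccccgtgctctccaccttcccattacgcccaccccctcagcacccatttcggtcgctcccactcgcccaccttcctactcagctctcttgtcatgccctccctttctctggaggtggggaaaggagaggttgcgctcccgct
Prkar1a: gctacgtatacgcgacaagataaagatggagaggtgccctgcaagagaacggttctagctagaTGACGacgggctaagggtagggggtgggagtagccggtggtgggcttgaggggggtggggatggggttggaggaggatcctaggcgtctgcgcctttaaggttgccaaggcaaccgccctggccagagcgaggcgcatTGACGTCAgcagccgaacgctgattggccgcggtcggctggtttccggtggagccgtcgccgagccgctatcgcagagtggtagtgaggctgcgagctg
The Prkar2b windows hold none of the letters searched, neither TGACG nor the SOX-type cores ACAAAG and ACAATG, while in the Prkar1a window shown the full element begins at -49 from the start. RefSeq lists other Prkar1a starts as well. From one of them (chr11:109650612-109650911) the same element begins at 38, past the start, and the windows of the others do not hold it. TGACGTCA occurs in 2.03% of 27025 genes and in 1 of the 31 members. TGACG occurs in 14 of the 31 members (45.2%) and 23% of all genes, but the members have many listed starts, 68 in all. Counted per promoter the shares were 23.5% and 20.8%. A match in these letters is not a bound site.

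Of the factor genes, Creb1, which encodes the main nuclear target of the kinase, read 9.25, 9.35 and 9.40 in CTRL and 9.16, 9.40 and 9.21 in Sox2cKO. The difference was -0.08 (95% interval -0.36 to 0.21). Of its 5 tested probe sets 2 were below 0 and 3 above (-0.09 to 0.43), and their mean differed by 0.14. Crem encodes a relative that includes the cyclic AMP-induced repressor ICER. It read 6.91, 5.35 and 6.02 in CTRL and 7.47, 6.89 and 6.54 in Sox2cKO. CTRL replicate 1 lay above Sox2cKO replicates 2 and 3, so the groups overlapped, while each Sox2cKO array exceeded the control of its number by 0.56, 1.54 and 0.52.

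Crem differed by 0.88 (standard error 0.41, 95% interval -0.08 to 1.83), or 1.83-fold, and its second tested probe set by 0.59. The unadjusted p was 0.0661 in limma and 0.0125 with the block, and the adjusted p was 0.999 and 0.884. Without CTRL replicate 2 the difference was 0.50, without CTRL replicate 1 it was 1.28, and against CTRL replicate 1 alone, through the sex covariate, it was 0.06.

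**Figure D4:**
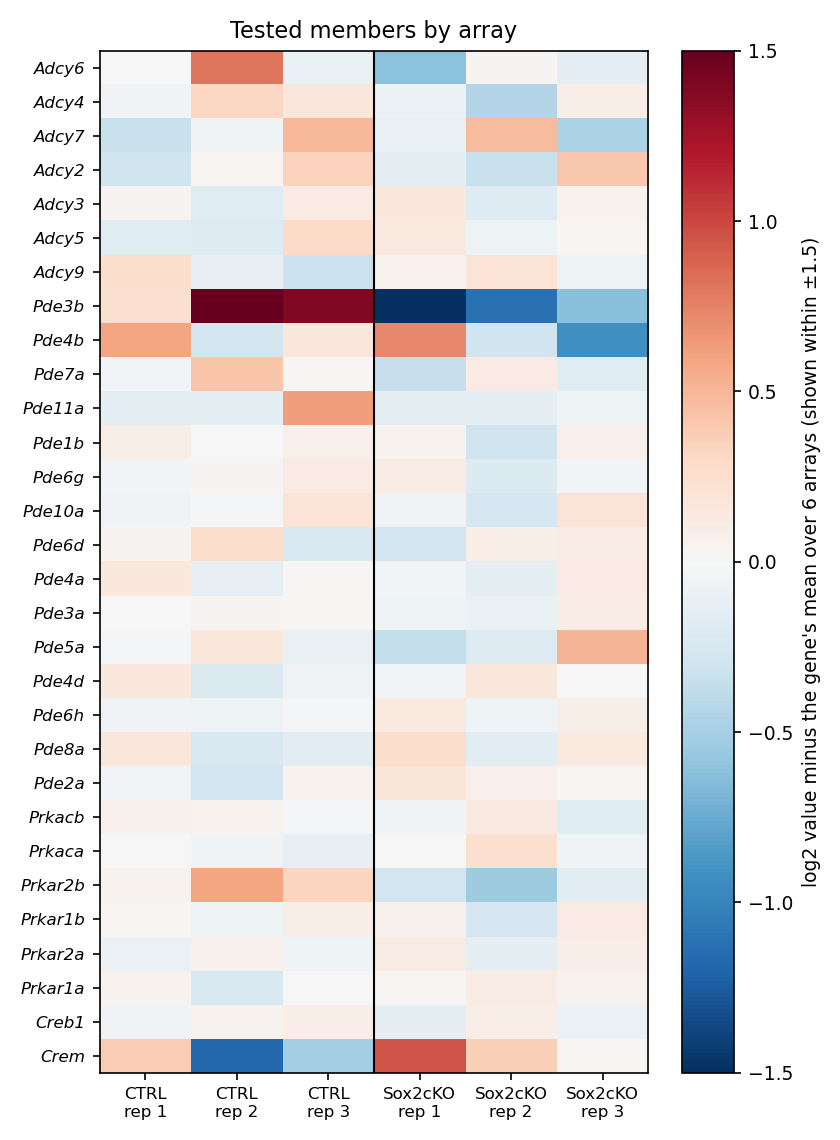
Each tested member's log2 value minus its mean over the 6 arrays (colour, shown within ±1.5), with members in rows by role and arrays in columns. Pde3b is red in the controls and blue in Sox2cKO, Prkar2b is red in CTRL replicates 2 and 3 and blue in Sox2cKO, Crem is blue in CTRL replicates 2 and 3, and Pde4b is red in replicate 1 of both groups.

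Spread between arrays set what could be seen. The median SD of a member within groups was 0.20 on the log2 scale, against 0.19 for all genes. It ran from 0.08 for Pde3a and Pde6h to 0.66 for Pde4b, with Crem (0.65) and Pde3b (0.63) next. Of the 19 members with several tested probe sets, 8 had all of them on one side of 0 and 11 did not. Leading probe sets ending in _s_at (6 members, Prkar2b among them) or _x_at (Adcy5, Pde5a and Prkaca) can match more than 1 transcript, so these values are less certain.

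The rest of the pathway was read through 8 lists of 125 genes, of which 86 were tested. None passed the adjusted threshold in limma (0 of 86), 2 had an unadjusted p under 0.05 (2.33%, against the 2.68% of all genes) and 5 had groups apart (5.81%, against the 5.85% of all genes). Of the 86, 43 were above 0 and 43 below, with a median of 0.00. Upstream of the cyclases, the stimulatory G protein gene Gnas read 11.67, 11.92 and 11.58 in CTRL and 11.33, 11.56 and 11.59 in Sox2cKO, and 3 of 6 G protein genes were below 0. Among 9 tested receptors that signal through it, Mc1r, the melanocortin receptor of melanocytes, was higher by 0.28 with groups apart (4.66 to 4.90 against 5.03 to 5.12), at the level of the filter. The receptor gene Calcrl differed by 0.68 and the prostaglandin receptor gene Ptger2 by -0.51, both with overlapping groups.

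Of 12 inhibitor and anchor genes of the kinase, 7 were above 0 and 5 below. Pkig, which encodes an inhibitor peptide that binds free catalytic subunits, read 7.81, 8.36 and 7.90 in CTRL and 7.09, 7.50 and 7.67 in Sox2cKO, so every Sox2cKO array lay below every control array. The difference was -0.61 (standard error 0.21, unadjusted p 0.0222, adjusted p 0.999 in limma). Among 11 tested effectors outside the kinase, Popdc3, of the cyclic AMP-binding Popeye family, differed by -0.45 with groups apart (7.82 to 8.23 against 7.07 to 7.74). In the list of CREB coactivators and kinases, 6 of 12 were above 0, and Sik3, a kinase that restrains the coactivators, was higher by 0.20 with groups apart.

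Genes that cyclic AMP is known to induce gave no common direction, with 9 of 17 above 0 and a median of 0.02. The clock genes Per2 and Per1 differed by -0.47 and -0.28 and the GTPase gene Gem by 0.53, all with overlapping groups. In the cyclic GMP branch 4 of 7 were above 0, and Nos3 differed by -0.15 with groups apart. In the list of insulin, PI3K and related genes around the Pde3b product, 6 of 13 were above 0, and Irs1 differed by -0.47 with overlapping groups.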

How the data were processed

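Gene expression was read on 6 arrays from total RNA (100 ng per sample, per the labels' protocols) amplified from the poly-A end. Judged by their range, the values the authors deposited are log2 expression. R 2.14.0 is the one tool in the submitters' processing notes, and the steps up to normalization are not given in the sources used here. Array medians (5.42 to 5.46) were already alike, so a shift shared by most genes would not be seen. Of 45101 probe sets, 34945 had 1 gene symbol by the platform annotation, 932 had several and 9160 none. Only those with 1 were used.

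Sox2cKO was compared with CTRL by limma 3.58.1 under R 4.3.3, two-sided and over the whole table of 13222 genes, with Benjamini-Hochberg adjustment and a threshold of 0.05. The procedure was tested on simulated data. The number of arrays limits the precision. The labels do not say that arrays came from separate animals, though the series' design text speaks of 3 experiments.

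Deviations from the group means correlated between same-numbered arrays (0.206 to 0.288 over genes, against -0.333 to 0.064 for other numbers), above the level of 0.1 for taking the numbers as pairs. Deviations sum to 0 within a group, so positive values for the same numbers by themselves lower those for other numbers. Printed errors, intervals and p-values are nevertheless from the fit without the block, as planned. For the members and for all genes, the blocked fit is given where it changes a call or count. Pathway and marker lists were read in the fit without the block only. Actb 3' minus 5' signals (0.56 to 0.82) overlapped between groups. Named genes are all members, check and sort markers, and up to 3 genes of smallest p from each pathway list. Mc1r, Pkig, Popdc3, Sik3 and Nos3 are among these. The members and lists were chosen with earlier results of these data known. Alternatives were the replicate block, other filters, the mean of probe sets, quantile normalization, an offset of 16, trended robust variances, a sex covariate, and each array left out.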

Additional observations from a re-analysis of the deposited data

How the results depend on the processing

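No member passed the adjusted threshold in limma under any of the 14 alternatives, and Pde3b, where it was tested, read lower in all of them. With the replicate block, genes at an unadjusted p under 0.05 in limma numbered 656 (354 without it). Members other than Pde3b numbered 4 (1 without it), against 4.96% of all genes (2.68% without it). No gene passed the adjusted threshold with the block. Requiring all 6 arrays above the 40th percentile removed Pde3b, whose Sox2cKO replicate 1 is below it, and left 1 member at an unadjusted p under 0.05 (2.48% of all genes) and 1 with groups apart (5.76% of all genes), Prkar2b in both. With the sex covariate 1 gene passed the adjusted threshold (Ostf1) and 94 had an unadjusted p under 0.05 (0.711% of all genes). Of the 29 members other than Pde3b, 0 were among these 94. The 1 member among them was Pde3b, on whose difference the family was chosen, so this is no test of it. With this covariate Pde3b differed by -1.34, and the comparison rests on CTRL replicate 1. Leaving out each array in turn gave 0 to 5 genes past the adjusted threshold, the 5 being Sox2, Xist, Eif2s3y, Kdm5d and Uty without CTRL replicate 1. It gave 200 to 637 genes at an unadjusted p under 0.05 in limma, or 1.51% to 4.82% of all genes. Members there numbered 2 to 3, and 1 to 2 of the 29 other than Pde3b. Members with groups apart numbered 2 to 9, and 1 to 8 of the 29, against 10.8% to 20.1% of all genes. The most, 8, came without CTRL replicate 1, where 18% of all genes were apart. Pde3b is in the larger counts by the choice of the family. The members' median, with Pde3b, was -0.07 to 0.02, and the Pde3b difference was -2.64 to -1.92. Of 404 values of the other 29 members under the alternatives, 394 moved by less than the SD within groups and 10 by more, 6 of these with the sex covariate and 4 with the mean of probe sets; the cause was not tested. Values near background flatten, which limits Pde3b and the members close to the filter.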
